A study of Mus musculus with 4 samples.

Results

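Mitochondrial ribosomal proteins are the nuclear-encoded proteins of the mitoribosome, the ribosome that works inside the mitochondrial matrix. Members were all probe sets whose platform annotation named exactly 1 gene with a symbol that begins with Mrpl or Mrps and a digit, and each gene was represented by its brightest probe set by mean log2 level over the 4 arrays. This gave 76 genes, 47 of the large subunit (Mrpl) and 29 of the small subunit (Mrps), of 18193 named genes. The gene table of the mouse reference held 78 protein-coding genes with such symbols. The other 2, Mrpl30 and Mrpl53, were measured only by probe sets that named a second gene too, and were left out of the 76.

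All samples came from K7M2, an osteosarcoma line of the mouse known for spreading to the lung, kept in medium with serum. On 3 arrays (replicates 1 to 3) the cells over-expressed ezrinT567A-GFP, a fusion of green fluorescent protein with an ezrin that carries alanine in place of the threonine by which it is switched on, and on 1 array they over-expressed GFP alone. Ezrin ties membrane proteins to the actin cortex. The labels give neither the promoter of the constructs, nor whether the cells were a clone or a pool, nor whether the 3 replicates were separate cultures, so a p-value here covers no more than the scatter among these arrays, which may be technical.

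A mitoribosome has a large subunit, which forms peptide bonds and releases the chain through an exit tunnel, and a small subunit, which holds the messenger RNA and decodes it. Its ribosomal RNAs come from the mitochondrial genome, while every protein is made in the cytosol from a nuclear gene and imported. It makes a few hydrophobic subunits of the respiratory chain and of ATP synthase, and cells that lack it cannot complete those complexes. Many of its proteins have a bacterial counterpart, and the others were added in the mitochondrial lineage.

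The deposited values are log2 expression from RMA, and every difference below is the ezrinT567A-GFP mean minus GFP on that scale, where 1 is a doubling. Array medians over all probe sets were 3.86 to 3.89 in ezrinT567A-GFP and 3.85 in GFP, and the number of arrays limits the precision. Hybridization spike-ins averaged 10.1, 11.1 and 10.4 on ezrinT567A-GFP replicates 1, 2 and 3, and 9.32 on the GFP array. The 18S ribosomal RNA control averaged 7.65, 11.3 and 7.76 in the same order, against 9.09 on GFP. The log2 signal of the 3′ probe set of Gapdh minus that of the 5′ probe set, a sign of RNA integrity, was -0.24 to -0.18 in ezrinT567A-GFP and -0.27 in GFP. For Actb the same quantity was 0.31 to 0.43 in ezrinT567A-GFP and 0.23 in GFP. The labelled cell type showed the type I collagen genes Col1a1 and Col1a2 at levels of 11.2 to 12.5 in ezrinT567A-GFP and 11.3 to 12.3 in GFP, while the bone genes Alpl and Ibsp lay at 2.74 to 4.02 in ezrinT567A-GFP and at 2.78 to 3.63 in GFP, under the median level of all genes (5.04). Sp7, an osteoblast transcription factor, lay at 5.22 to 5.41 in ezrinT567A-GFP and at 5.05 in GFP, and 3 of the 8 osteoblast markers were not measured by a probe set of their own. Of 6 epithelial markers 5 were lower on all 3 ezrinT567A-GFP arrays, where 25.6% of all genes were. The mean level over the 6 was 3.71 to 4.06 in ezrinT567A-GFP and 5.00 in GFP. The largest differences were those of Krt5 (-2.05, from 6.73 in GFP) and Krt14 (-2.80, from 7.07 in GFP, probe sets -2.80 to 0.08). The 1 marker not lower was Krt18, with a difference of 0.03. The leukocyte markers Ptprc, Adgre1 and Cd68 lay between 2.10 and 4.13 in ezrinT567A-GFP and between 2.22 and 3.89 in GFP, while Csf1r, of the same list, lay at 11.9 to 12.2 in ezrinT567A-GFP and at 11.9 in GFP. All 3 endothelial markers lay between 2.44 and 4.29 in ezrinT567A-GFP and between 2.52 and 4.02 in GFP. The part of these values in the differences below was not tested.

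The main question for this gene group was whether ezrinT567A-GFP and GFP cells differed in transcripts of the mitoribosome, and whether both subunits moved alike. The members stayed close to the level of GFP. The differences ran from -0.63 for Mrps14 to 0.66 for Mrpl23, with a median of 0.04 over the 76 genes, and 45 were above GFP (59.2%, where 56.1% of all genes were) and 31 below. Their SD over genes was 0.24, against 0.41 over the 9096 genes above the median level of all genes, a class that held all 76 members. Related groups had a smaller SD, 0.20 over cytosolic ribosomal protein genes and 0.20 over genes of the respiratory chain and ATP synthase. None of the 76 passed limma's test over all genes, as 0% of all genes did, while 13 had an unadjusted p under 0.05, and the lowest adjusted p among them was 0.231. In bulk RNA, fewer cells of a type and less RNA per cell cannot be told apart.

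Highest above GFP was Mrpl23, whose protein sits at the end of the exit tunnel. It measured 9.35, 9.42 and 9.14 in ezrinT567A-GFP, against 8.64 in GFP (difference 0.66, SE 0.15, limma adjusted p = 0.252), or 1.58-fold. Its 3 ezrinT567A-GFP arrays did not overlap GFP, and it was the only member at least 1.5-fold higher, where 3.55% of all genes and 5.74% of genes above the median level were. Mrpl38, a protein of the central protuberance without a bacterial counterpart, measured 8.40, 8.42 and 8.25 in ezrinT567A-GFP, against 7.79 in GFP (difference 0.57, SE 0.13, limma adjusted p = 0.252). Its further probe sets gave 0.11 and 0.38, both from dimmer signals.

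Farthest below GFP was Mrps14, which binds ribosomal RNA in the head of the small subunit. It measured 9.69, 9.51 and 9.66 in ezrinT567A-GFP, against 10.24 in GFP (difference -0.63, SE 0.12, limma adjusted p = 0.231). It was the only member at least 1.5-fold lower, where 3.12% of all genes and 4.64% of those above the median level were, and its other probe sets, both far dimmer, gave -0.70 and -0.08. Mrpl18, another protein of the central protuberance, measured 9.37, 9.26 and 9.45 in ezrinT567A-GFP, against 9.78 in GFP (difference -0.42, SE 0.12, limma adjusted p = 0.288). Both genes lay below GFP on every ezrinT567A-GFP array.

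**Figure D1:**
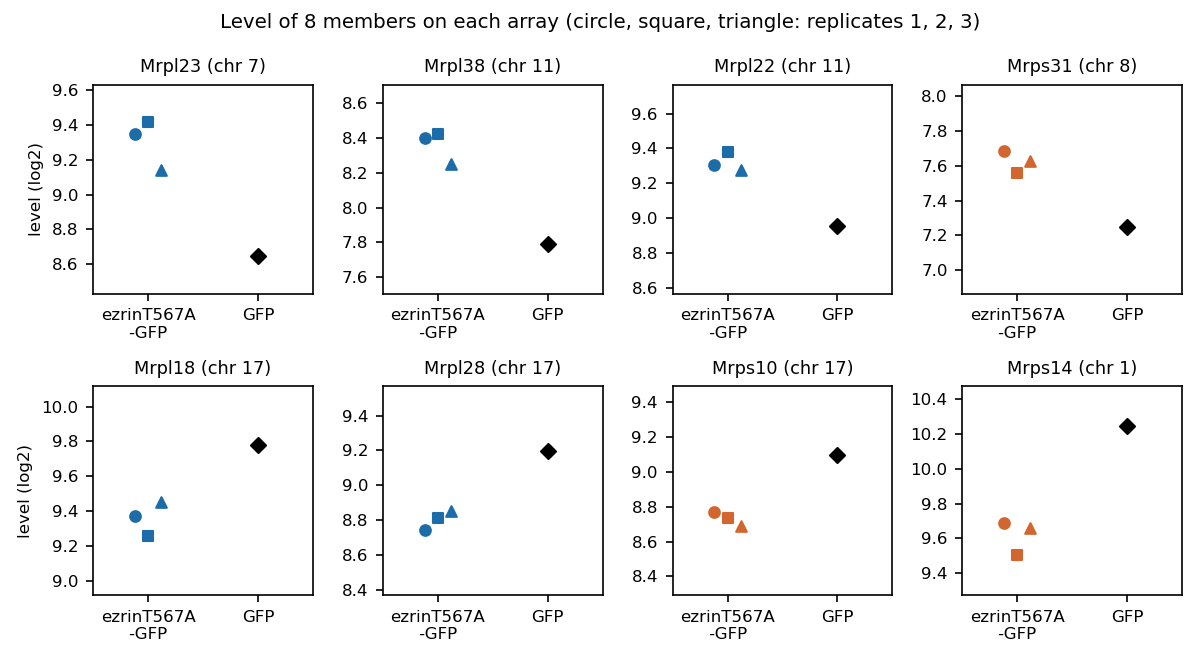
Level on the log2 scale (vertical axis, 1.2 units high in each panel) of 8 members on each array. Circles, squares and triangles are ezrinT567A-GFP replicates 1, 2 and 3, the diamond is the single GFP array, and blue and orange mark the large and the small subunit. The upper 4 genes lie above GFP on all 3 arrays, led by Mrpl23 (difference 0.66), and the lower 4 lie below GFP on all 3, down to Mrps14 (difference -0.63).

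The promoters of 4 members with large differences are shown here so that these can be set beside the DNA around each start, and Mrpl39 was chosen because it holds a motif described below. No window was found for Mrpl38. The windows run from 250 bases before to 50 bases after the annotated start (RefSeq, GRCm38.p6), 5′ to 3′ on the gene's strand, in lower case with motif matches in capitals. Mrpl23 lies at chr7:142532782-142533081 (plus strand), Mrps14 at chr1:160194965-160195264 (plus strand), Mrpl18 at chr17:12916042-12916341 (minus strand) and Mrpl39 at chr16:84735195-84735494 (minus strand).
Mrpl23: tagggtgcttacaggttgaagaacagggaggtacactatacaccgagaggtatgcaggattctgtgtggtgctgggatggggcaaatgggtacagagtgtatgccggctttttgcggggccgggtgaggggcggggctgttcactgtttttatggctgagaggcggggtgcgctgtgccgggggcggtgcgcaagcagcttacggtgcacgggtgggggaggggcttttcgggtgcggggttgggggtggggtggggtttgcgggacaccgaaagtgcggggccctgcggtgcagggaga
Mrps14: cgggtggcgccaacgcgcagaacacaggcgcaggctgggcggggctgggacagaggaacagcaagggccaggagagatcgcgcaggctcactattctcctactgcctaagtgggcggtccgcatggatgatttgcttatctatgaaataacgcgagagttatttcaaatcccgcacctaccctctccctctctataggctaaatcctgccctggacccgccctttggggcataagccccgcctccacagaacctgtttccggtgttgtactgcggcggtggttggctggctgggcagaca
Mrpl18: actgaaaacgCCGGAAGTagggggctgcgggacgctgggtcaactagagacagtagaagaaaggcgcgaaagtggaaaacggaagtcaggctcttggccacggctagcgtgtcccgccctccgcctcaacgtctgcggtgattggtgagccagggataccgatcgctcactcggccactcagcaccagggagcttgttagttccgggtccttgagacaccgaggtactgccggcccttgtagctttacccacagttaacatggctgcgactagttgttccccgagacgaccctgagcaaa
Mrpl39: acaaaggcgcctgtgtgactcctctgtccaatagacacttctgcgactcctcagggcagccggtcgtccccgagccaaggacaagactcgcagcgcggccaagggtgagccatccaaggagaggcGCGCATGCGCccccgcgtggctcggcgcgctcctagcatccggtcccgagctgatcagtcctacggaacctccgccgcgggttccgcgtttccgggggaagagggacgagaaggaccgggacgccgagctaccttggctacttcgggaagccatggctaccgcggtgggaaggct
The capitals in Mrpl18 mark the ETS motif that GABP, a regulator of many mitochondrial genes, is known to bind, and those in Mrpl39 mark the motif of NRF1, another such regulator. The windows of Mrpl23 and Mrps14, the members with the highest and the lowest difference, hold neither.

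Those motifs were then counted over the members. The NRF1 motif was searched as GCGCNTGCG and the ETS motif as CCGGAAGT, each on both strands, and a match to one can share at most an end base with a match to the other. A promoter window was found for 67 of the 76 members. Of these, 17 (25.4%) held the NRF1 motif, against 17.3% of the 7447 genes with a window and a level above the median, and 7.12% of all 27025 genes with a window. The ETS motif was in 12 (17.9%), against 10.5% and 4.31%, and Mrpl43 and Mrps26 held both.

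The median difference was 0.07 over the 17 with the NRF1 motif and 0.02 over the 50 without it. With a further C at the end of this motif, the form searched first, 12 of the 67 members (17.9%) held it. It was held by 12.9985% of genes with a window and a level above the median, and by 5.19% of all genes with a window. The median differences of members ran the other way for this longer form, 0.016 with it and 0.05 without. For the ETS motif the median was 0.0036 over the 12 with the ETS motif, and 0.07 over the 55 without it. Holders of the NRF1 motif ranged from -0.37 (Mrps9) to 0.40 (Mrpl39), and holders of the ETS motif from -0.42 (Mrpl18) to 0.24 (Mrpl27). A match is a description of these letters, not a site.

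In the large subunit, 31 of 47 genes were above GFP and 16 below, with a median difference of 0.09. The median against GFP was 0.11, 0.08 and 0.05 on ezrinT567A-GFP replicates 1, 2 and 3, or 0.08 ± 0.03 (SD, n = 3), while over all genes above the median level it was 0.04, 0.0037 and 0.04. Without replicate 1 the median of the subunit was 0.04. On all 3 arrays, 21 genes (44.7%) lay above GFP and 11 (23.4%) below, where 32.5% and 25.6% of all genes did, and 37% and 29.6% of genes above the median level.

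Further large-subunit genes stood above GFP on all 3 arrays. Mrpl22, which lines the tunnel, measured 9.30, 9.38 and 9.28 in ezrinT567A-GFP, against 8.96 in GFP (difference 0.36, SE 0.10, limma adjusted p = 0.287). Mrpl39, a mitochondrial addition that resembles part of a threonyl-tRNA synthetase, measured 9.54, 9.78 and 9.62 in ezrinT567A-GFP, against 9.24 in GFP, and its difference was 0.40 (SE 0.13, limma adjusted p = 0.323), with 0.27 by its other probe set. Neither gene overlapped GFP. Mrpl16, close to the peptidyl transferase centre, stood 0.21 (SE 0.10) above GFP, and Mrpl43, a mitochondrial addition, 0.19 (SE 0.10).

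Other large-subunit genes lay below GFP on all 3 arrays, and their choice by moderated t favours genes with a small spread. Mrpl28 measured 8.74, 8.81 and 8.85 in ezrinT567A-GFP, against 9.20 in GFP (difference -0.39, SE 0.11, limma adjusted p = 0.283), and its further probe sets gave -0.56 and -0.24. Mrpl15 measured 9.51, 9.44 and 9.46 in ezrinT567A-GFP, against 9.80 in GFP (difference -0.33, SE 0.09, limma adjusted p = 0.292). All 8 probe sets of Mrpl15 were below GFP, from -0.50 to -0.05. Mrpl42, once listed with the small subunit, measured 10.21, 10.17 and 10.21 in ezrinT567A-GFP, against 10.52 in GFP (difference -0.32, SE 0.08, limma adjusted p = 0.282), and a far dimmer probe set of it gave 0.23. None of these groups of arrays overlapped GFP.

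Further large-subunit genes lay below GFP with wider errors. Mrpl44, which has a ribonuclease III fold, differed by -0.32 (SE 0.15) and all 4 of its probe sets lay below GFP, from -0.32 to -0.17. Mrpl2, a protein next to the peptidyl transferase centre, differed by -0.26 (SE 0.12). The stalk protein gene Mrpl1, with the lowest signal of the subunit, differed by -0.19 (SE 0.19, probe sets -0.30 to 0.09), and replicate 1 lay above GFP. Mrpl24, with the highest signal, differed by 0.13 (SE 0.14).

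Further large-subunit genes were described for their roles. Mrpl12, which recruits translation factors to the stalk and in mammals also binds the mitochondrial RNA polymerase, measured 10.1, 9.97 and 9.98 in ezrinT567A-GFP, against 9.94 in GFP, a difference of 0.08 (SE 0.10). Mrpl58, a peptidyl-tRNA hydrolase that rescues stalled mitoribosomes, stood 0.18 (SE 0.12) above GFP. Both genes lay above GFP on all 3 arrays, and neither difference passed the test (limma adjusted p = 0.786 and 0.573).

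In the small subunit, 14 of 29 genes were above GFP and 15 below. The median difference was -0.05, and the medians on replicates 1, 2 and 3 were 0.02, -0.02 and -0.02, or -0.0053 ± 0.023 (SD, n = 3). This spread leaves out the error of the single GFP array. Above GFP on all 3 arrays were 10 genes, and below it also 10 (34.5% each). Of all genes 32.5% lay above and 25.6% below, and of genes above the median level 37% and 29.6%. Genes on both sides of GFP thus made up the median near 0.

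Mrps31, a mitochondrial addition in the head, measured 7.68, 7.56 and 7.63 in ezrinT567A-GFP, against 7.25 in GFP (difference 0.37, SE 0.12, limma adjusted p = 0.315). Mrps7, which binds ribosomal RNA in the head, measured 9.24, 9.15 and 9.19 in ezrinT567A-GFP, against 8.90 in GFP (difference 0.29, SE 0.10, limma adjusted p = 0.338). Both stood above GFP on every array. Mrps23 differed by 0.25 (SE 0.11), and its 3 probe sets gave 0.24 to 0.31. Mrps5 differed by 0.22 (SE 0.14), but its 5 probe sets ran from -0.39 to 0.32. For Mrps35 the difference was 0.22 (SE 0.17).

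Below GFP, after Mrps14, came Mrps10, another head protein, with 8.77, 8.74 and 8.69 in ezrinT567A-GFP, against 9.10 in GFP (difference -0.36, SE 0.10, limma adjusted p = 0.287). A dimmer probe set of Mrps10 gave 0.18. Mrps34, a mitochondrial addition, measured 9.46, 9.44 and 9.41 in ezrinT567A-GFP, against 9.76 in GFP (difference -0.32, SE 0.09, limma adjusted p = 0.291). These ezrinT567A-GFP values spanned no more than 0.08, and GFP lay outside them. Mrps9 differed by -0.37 (SE 0.17), yet its 4 probe sets ran from -0.37 to 0.05, and by the brightest plain _at probe set its difference was 0.045. Mrps25 differed by -0.24 (SE 0.10), with probe sets from -0.24 to 0.03.

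The decoding-centre protein gene Mrps12 stood 0.11 (SE 0.13) above GFP. Mrps36, whose product is also known as a link between subunits of the oxoglutarate dehydrogenase complex, measured 7.87, 8.33 and 8.03 in ezrinT567A-GFP, against 7.80 in GFP, a difference of 0.28 (SE 0.21) set mainly by replicate 2. Mrps6, with the highest signal of the subunit, differed by 0.11 (SE 0.10), and Mrps27, with the lowest, by -0.10 (SE 0.13). None of these 4 passed the test (limma adjusted p of 0.634 or above).

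A set of paralogues shares the name Mrps18, and none of them passed the test. Mrps18a, which structures of the mammalian mitoribosome place in the large subunit, measured 8.71, 8.73 and 8.54 in ezrinT567A-GFP, against 8.93 in GFP (difference -0.27, SE 0.13, limma adjusted p = 0.441). Mrps18b differed by 0.03 (SE 0.10) and Mrps18c by 0.11 (SE 0.10). Mrps30, the other protein with a small-subunit name and a place in the large subunit, differed by 0.10 (SE 0.15). The differences between these paralogues were not tested.

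**Figure D2:**
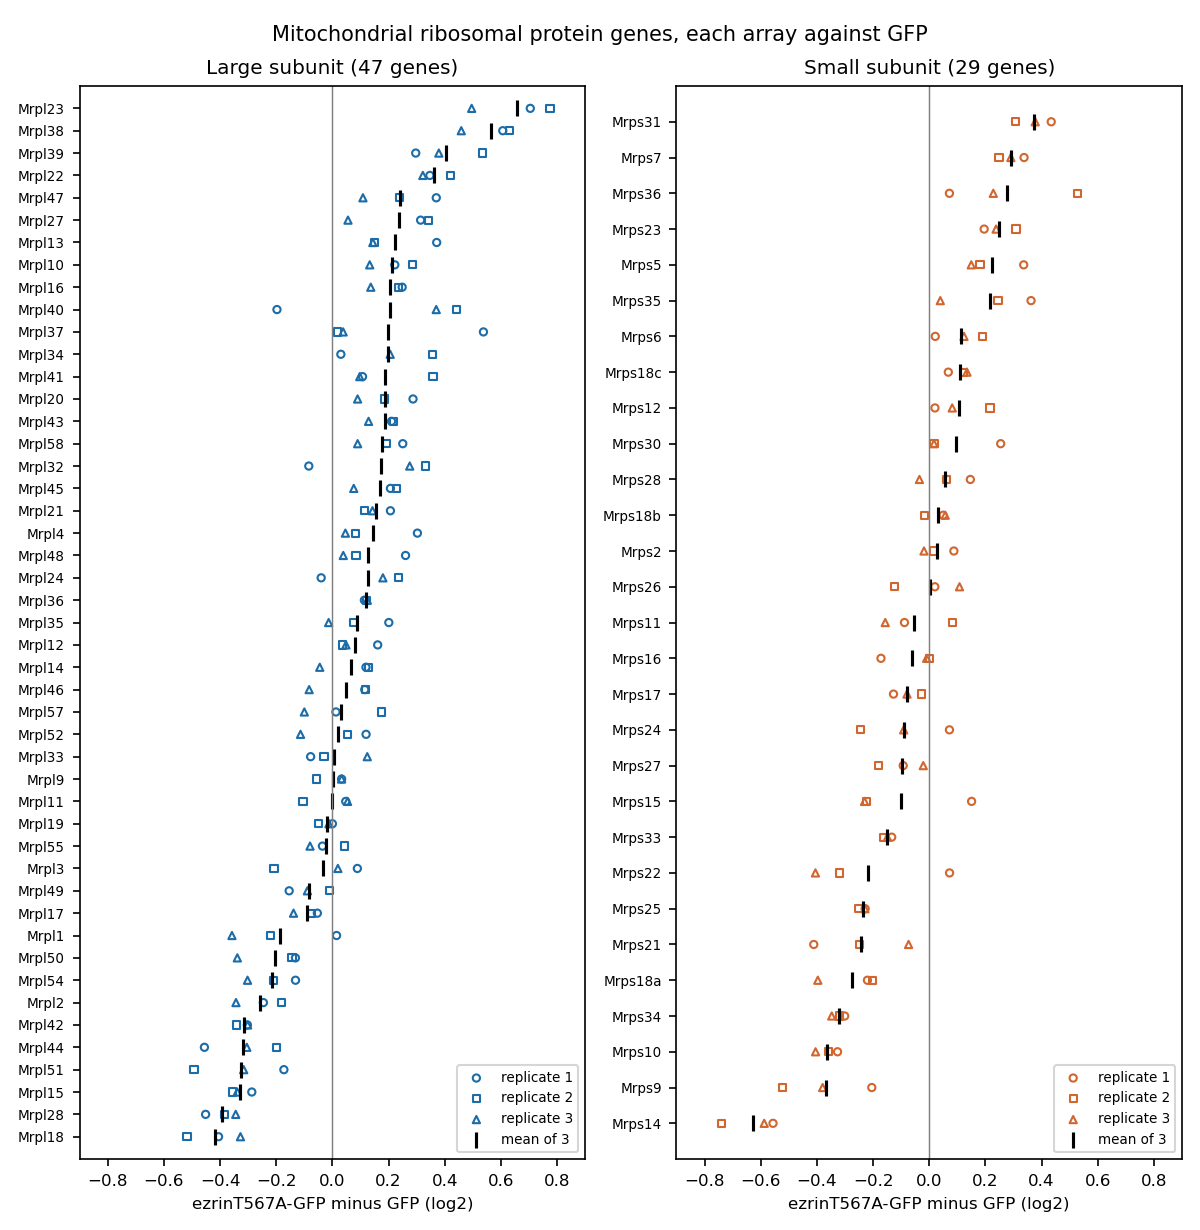
Each ezrinT567A-GFP array minus GFP (log2, horizontal axis) for the 47 large-subunit genes on the left and the 29 small-subunit genes on the right, ordered by the mean. Open circles, squares and triangles are replicates 1, 2 and 3, the black bar is their mean, and the grey line at 0 is the GFP array. Means run from -0.42 to 0.66 in the large subunit and from -0.63 to 0.37 in the small one.

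Counts of genes apart from GFP lay near those of other genes. At an unadjusted p under 0.05, 13 of 76 members (17.1%) differed, against 14% of all genes and 20% of genes above the median level. The 6 on the higher side (Mrpl23, Mrpl38, Mrpl39, Mrpl22, Mrps31 and Mrps7) stand against 7.46% of all genes and 11.3% of genes above the median level. The 7 on the lower side (Mrps14, Mrpl18, Mrpl28, Mrps10, Mrpl15, Mrps34 and Mrpl42) stand against 6.5% and 8.77%. On all 3 arrays 31 members (40.8%) lay above GFP, where 32.5% of all genes and 37% of genes above the median level did. Below GFP on all 3 were 21 (27.6%), where 25.6% and 29.6% did. By subunit, 8 of 47 large-subunit genes (17%) and 5 of 29 small-subunit genes (17.2%) had an unadjusted p under 0.05.

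The median of the large subunit lay above that of the small subunit on each array, by 0.09, 0.10 and 0.07 on replicates 1, 2 and 3, or 0.08 ± 0.02 (SD, n = 3). Since all 3 values use the same GFP array, they are not independent of its error. From the gene means the gap was 0.14, and it was 0.05 without replicate 1. With Mrps18a and Mrps30 counted in the large subunit it was 0.14 again. With the mean of each gene's probe sets it was 0.07, and with plain _at probe sets alone (no _s_at, _x_at or _a_at), which left 62 members, it was 0.08, with the small-subunit median at 0.015.

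The members were also split by ancestry. In the large subunit the median was 0.09 over 29 genes with a bacterial counterpart and 0.09 over 18 without one. In the small subunit it was -0.06 over 16 genes and 0.0015 over 13. The array medians of these 4 classes had SDs of 0.02 to 0.09 (n = 3).

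Related gene groups were measured on the same arrays. The 46 cytosolic ribosomal protein genes had medians of -0.0089, -0.06 and -0.04 on replicates 1, 2 and 3, with 15 genes above GFP and 31 below. The 79 subunit genes of the respiratory chain and ATP synthase had medians of 0.03, -0.04 and -0.02, with 38 above and 41 below. Each of the array medians of the large subunit was above all of these, while those of the small subunit lay among them. The differences between these groups were not tested, since genes are not replicates.

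**Figure D3:**
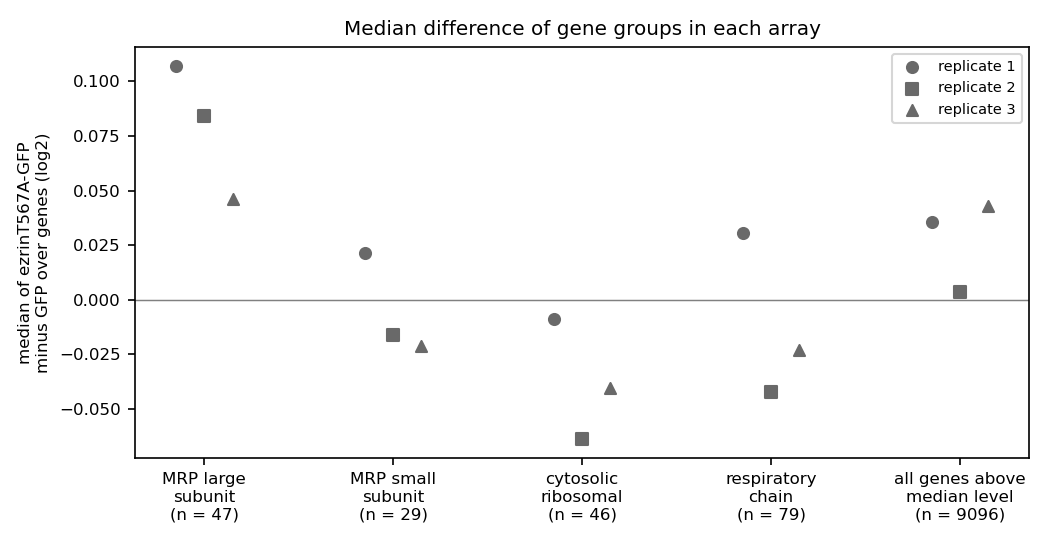
Median over genes of each ezrinT567A-GFP array minus GFP (log2, vertical axis) for both subunits of the mitoribosome, cytosolic ribosomal proteins, the respiratory chain with ATP synthase, and all genes above the median level. Circles, squares and triangles are replicates 1, 2 and 3. The large subunit lies above the small one on each array, by 0.07 to 0.10, and all medians lie within 0.11 of GFP.

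The members were then set in order of their chromosomes. The 4 members on chromosome 1 (Mrps14, Mrps9, Mrpl15 and Mrpl44) all lay below GFP on all 3 arrays, with a median of -0.35, and the 506 other genes of chromosome 1 above the median level had a median of -0.34, with 72.5% of them below GFP on all 3 arrays. Of 8 members on chromosome 17, 6 (Mrpl18, Mrpl28, Mrps10, Mrps34, Mrps18a and Mrpl2) were below GFP on all 3 arrays. Their chromosome had a member median of -0.30, and its 427 other genes one of -0.13, with 53.2% of them below GFP on all 3 arrays. The remaining 2, Mrpl14 (0.07) and Mrps18b (0.03), overlapped GFP. Chromosomes 1 and 17, with 12 of the 76 members, thus held 6 of the 7 members with an unadjusted limma p under 0.05 on the lower side. Mrpl42 on chromosome 10 was the other one. Such a p on the lower side was found for 6.5% of all genes and 8.77% of genes above the median level. Its share among the other genes of chromosomes 1 and 17 was not counted.

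On the higher side stood chromosome 11, with 9 of 11 members above GFP on all 3 arrays and a median of 0.21, against 0.11 for 752 other genes, of which 48.8% lay above GFP on all 3. It held Mrpl38, Mrpl22 and Mrps7. Both members of chromosome 8, Mrps31 and Mrpl34, lay above GFP on all 3 arrays (median 0.29, against 0.24 over 514 other genes, 66.5% of them above GFP on all 3). All 3 members of chromosome 16 had means above GFP (median 0.20, against 0.16 over 283 other genes). On all 3 arrays, 2 of these members lay above GFP, and 33.6% of the other genes did. The medians of those other genes on replicates 1, 2 and 3 were -0.10, 0.26 and 0.33. Chromosome 10 went its own way, with Mrpl42 and Mrpl54 at a median of -0.26 and 444 other genes at 0.02.

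Over the 76 members, the difference of a gene and the median of the other genes on its chromosome had Pearson's r of 0.69 and Spearman's rho of 0.64. This is a description across genes, which share the same 4 arrays, the same GFP value behind both axes, and one chromosome median for all members of a chromosome. In the large subunit r was 0.63 (n = 47) and in the small one 0.75 (n = 29). Without chromosome 1 it was 0.60 (n = 72), and without chromosomes 1 and 17 it was 0.47 (n = 64). With the median of the 10 nearest other genes, 5 on each side, r was 0.59. For other groups r was taken with the chromosome median, the gene's own value left out, and not with the neighbours. It was 0.62 for respiratory chain genes (n = 72) and 0.35 for cytosolic ribosomal proteins (n = 44). Over all 9004 other genes above the median level it was 0.32.

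**Figure D4:**
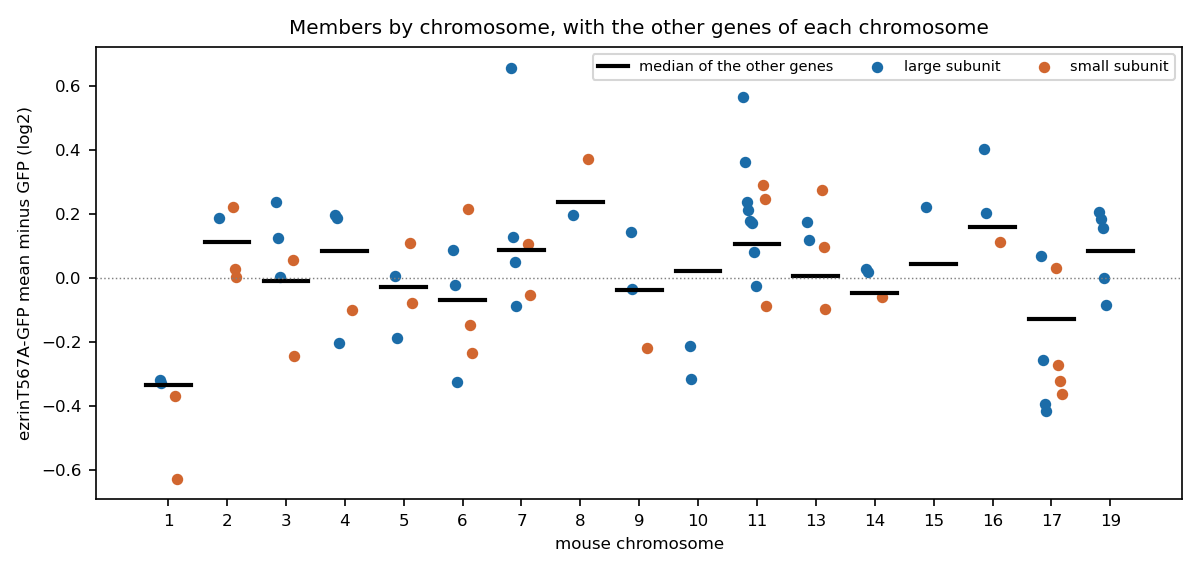
Mean difference of ezrinT567A-GFP minus GFP (log2, vertical axis) of each member, by mouse chromosome, with large-subunit genes in blue and small-subunit genes in orange. Black bars give the median of the other genes of that chromosome above the median level of all genes. The members on chromosome 1 surround a bar at -0.34, and most of those on chromosome 17 lie below 0 and most of those on chromosome 11 above it.

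Taking off the chromosome's median narrowed the members' spread. The SD over the 76 genes was 0.18 after and 0.24 before, and over all genes above the median level 0.38 after and 0.41 before. The subunit medians then were 0.06 and -0.05, a gap of 0.11. Of the large subunit, 6 of 47 genes (12.8%) lie on chromosome 1 or 17, and of the small subunit 6 of 29 (20.7%). Without those 12 genes the medians were 0.13 and 0.03, a gap of 0.10. These settings were chosen after seeing the data.

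The 3 ezrinT567A-GFP arrays also differed among themselves by chromosome, a comparison that does not involve GFP and was chosen after seeing the values. Replicate 1 minus the mean of replicates 2 and 3 was above 0 for 4 of 4 members on chromosome 4 (median 0.26), where the other genes had a median of 0.24. On chromosome 16 it was below 0 for 3 of 3 members (median -0.16), where the other genes had -0.40. Members lay to one side on other chromosomes too. All 6 on chromosome 6 and all 3 on chromosome 9 were above 0 (medians 0.10 and 0.24), where the other genes had medians of 0.02 and 0.06. On chromosome 17 it was 7 of 8, where the other genes had a median of -0.015. The share of other genes above 0 was not counted for single chromosomes. Over all chromosomes 53 of 76 members (69.7%) were above 0, against 53.0% of other genes above the median level. Mrpl37, on chromosome 4, measured 8.04, 7.52 and 7.54 on replicates 1, 2 and 3, against 7.50 in GFP. Mrpl40, on chromosome 16, measured 8.84, 9.48 and 9.41, against 9.04 in GFP. These genes had SDs of 0.29 and 0.35 between replicates, where the median member had 0.10. Over all 76 members r was 0.57 and rho 0.39, and without chromosomes 4 and 16 they were 0.36 and 0.24 (n = 69).

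**Figure D5:**
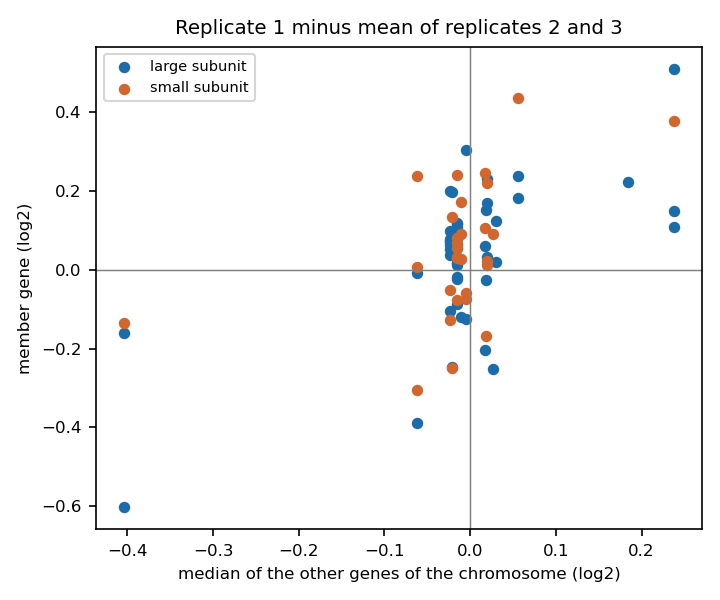
Replicate 1 minus the mean of replicates 2 and 3 of ezrinT567A-GFP (log2) for each member (vertical axis) against the median of the same quantity over the other genes of its chromosome (horizontal axis). The points at -0.40 are the 3 members on chromosome 16 and those at 0.24 the 4 members on chromosome 4.

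Other genes of mitochondrial gene expression were described from lists. Of mitoribosome proteins with other names, 4 of 5 were measured, and 0 of them had an unadjusted p under 0.05. Gadd45gip1, a large-subunit protein, stood 0.30 (SE 0.12) above GFP, Dap3, a GTP-binding small-subunit protein, differed by -0.15 (SE 0.09), and Ptcd3, a small-subunit protein with RNA-binding repeats, by -0.24 (SE 0.13, probe sets -0.24 to 0.08). Of 24 assembly and rRNA modification factors, 14 were above GFP, 9 below and 1 level with it, with a median of 0.09. On the higher side 1 had an unadjusted limma p under 0.05, where 7.46% of all genes and 11.3% of genes above the median level had. On the lower side 4 had, where 6.5% and 8.77% had. The GTPase gene Noa1 measured 8.18, 7.95 and 7.97 in ezrinT567A-GFP, against 8.55 in GFP (difference -0.52, SE 0.14, limma adjusted p = 0.287). The rRNA methylase Tfb1m differed by -0.48 (SE 0.15) and the helicase Ddx28 by 0.47 (SE 0.13).

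Of 12 translation factors 10 were measured, 6 above and 4 below GFP (median 0.07). The ribosome recycling factor Mrrf stood 0.44 (SE 0.13) above GFP, the elongation GTPase Guf1 differed by -0.54 (SE 0.15), and Gfm2, which works with Mrrf in recycling, by 0.20 (SE 0.12). Those of Mrrf and Guf1 had an unadjusted p under 0.05. Of 17 mitochondrial tRNA synthetases 16 were measured, 11 above and 5 below (median 0.12). Iars2 measured 6.02, 6.05 and 6.14 in ezrinT567A-GFP, against 6.89 in GFP (difference -0.82, SE 0.12, limma adjusted p = 0.200). Hars2 stood 0.63 (SE 0.14) above GFP, with 0.04 by its other probe set, and Nars2 differed by -0.48 (SE 0.17), its probe sets giving -0.48 and 0.07.

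Of the 14 genes of mitochondrial transcription and RNA processing, 8 were above and 6 below GFP (median 0.09). Hsd17b10, a subunit of the mitochondrial ribonuclease P, measured 10.16, 10.08 and 10.09 in ezrinT567A-GFP, against 9.25 in GFP (difference 0.86, SE 0.09, limma adjusted p = 0.187), and its other probe set gave 0.82. Tfb2m, a transcription factor of the mitochondrial genome, differed by -0.84 (SE 0.21), and the RNA-degrading Pnpt1 by 0.74 (SE 0.23). Of the 9 nuclear regulators 3 were above and 6 below GFP (median -0.02). Myc measured 8.71, 8.75 and 8.70 in ezrinT567A-GFP, against 9.20 in GFP, a difference of -0.48 (SE 0.10), the orphan receptor Esrra stood 0.61 (SE 0.13) above GFP, and Ppargc1a, whose level lay below the median of all genes, differed by -0.56 (SE 0.16, probe sets -0.56 to 0.36). In all of these lists 0 genes passed limma's test over all genes, while 5, 2, 3, 3 and 3 had an unadjusted p under 0.05 in the lists of assembly factors, translation factors, synthetases, RNA genes and regulators, or 20.8%, 20%, 18.8%, 21.4% and 33.3% of them, where 14% of all genes and 20% of genes above the median level had. Over 65 genes of the first 5 lists that lay above the median level, r with the chromosome median was 0.54. Iars2 and Tfb2m on chromosome 1, Tfb1m on chromosome 17 and Ddx28 on chromosome 8 lay on the side of their chromosome's median. On the other side lay Hsd17b10 on chromosome X (median -0.14) and Nars2 on chromosome 7 (median 0.09), while Noa1 and Guf1 lay far below the median of chromosome 5 (-0.03).

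The members' probe sets were compared last. The 76 genes had 156 probe sets, of which 116 lay above the median level of all genes. In 24 of the 42 genes with more than 1 probe set, these differed in sign. Among the 27 genes with at least 2 probe sets above the median level, 9 differed in sign among those. The brightest and the second probe set had r of 0.48 over all 42 genes and of 0.67 over these 27, where both come from the same arrays.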

How the data were processed

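Gene expression was measured on 4 one-colour Affymetrix arrays, 3 of ezrinT567A-GFP and 1 of GFP, grouped by the over-expression label. The authors deposited log2 expression per probe set made with RMA, per the submitters' processing notes, in values from 1.18 to 13.7. The log2 scale was read from that range, and no software version is given in the sources used here. Because RMA equalises the distributions of the arrays, these values cannot show a shift in overall RNA content.

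Of 45101 probe sets, control probe sets were left out, as were probe sets without exactly 1 listed gene. Genes were named from the platform annotation, and chromosomes, neighbours and promoters came from RefSeq tables of GRCm38.p6, whose gene table held all 76 members and whose promoter table held 67. The test was limma 3.58.1 under R 4.3.3 (eBayes with a mean trend, two-sided, Benjamini-Hochberg over 18193 genes, threshold 0.05), with 2 residual degrees of freedom, all from ezrinT567A-GFP, and 2.23 more from the prior. This takes the spread of the lone GFP array to equal that of ezrinT567A-GFP. The smallest p an exact permutation of the 4 arrays allows is 0.25. No batch was labelled. SE is the moderated standard error. On simulated data for this comparison (20 simulations, 18193 genes), 65.0% of 4-fold and 11.2% of 2-fold changes were recovered, with 1.15 false calls on average. The simulated spread of a gene was set from its SD among the ezrinT567A-GFP arrays. Changes as small as those of the members were not simulated. Python 3.11.15 with matplotlib 3.10.9 drew the figures.

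Named members were the 6 genes per subunit with the most positive and the 6 with the most negative moderated t, those with the highest and lowest signal, and 8 chosen for known roles; from each other list came the 3 genes with the smallest p. Other members and genes were named after their values were seen. The members, lists and rules were chosen with earlier results of these data known. Alternatives were quantile normalization, median centring, the mean of probe sets, probe sets of the plain _at kind, genes above the median level, other priors, another subunit assignment and leaving out each replicate. The NRF1 motif was shortened by 1 letter after its counts had been seen.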

Additional observations from a re-analysis of the deposited data

How the results depend on the processing

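With limma, 0 members passed an adjusted p of 0.05 in all 11 settings, the lowest adjusted p of a member ranging from 0.114 to 0.558, while over all genes quantile normalization gave 34 calls, median centring 30, a robust prior 9, the mean of probe sets 6 and the genes above the median level 3, against 0 as reported. At an unadjusted p under 0.05 there were 13 members, 5 without replicate 3 and 15 without replicate 1. The large-subunit median (0.087) was 0.128 without members on chromosomes 1 and 17 and 0.042 to 0.117 with 1 replicate left out. The small-subunit median (-0.054) was -0.012 with the mean of probe sets, 0.015 without _s_at, _x_at and _a_at probe sets, 0.028 without members on chromosomes 1 and 17 and -0.037 to -0.0077 with 1 replicate left out. The gap between them (0.141) was 0.070, 0.081 and 0.10 under the same 3 settings, 0.115 after taking off the chromosome median and 0.050 to 0.154 with 1 replicate left out; the cause was not tested. Among named genes the sign turned for Mrps9 (0.045 without those probe set kinds), and for the near-zero marker genes Col1a1 (0.0070 with the mean of probe sets, -0.105 to 0.0080 with 1 replicate left out), Pecam1 (-0.013 to 0.235) and Kdr (-0.060 to 0.130). No paired analysis was possible because the single GFP array carries no replicate number. The number of arrays, with 1 in GFP, limits every value, and detection above background was not used here.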

Other observations

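Mrps11 and Mrpl46 are neighbours on chromosome 7 that are read in opposite directions, and their promoter windows share 141 bases at chr7:78783040-78783180 (RefSeq, GRCm38.p6). The shared stretch, on the plus strand and with no match to either motif searched, is shown because both genes start within it.
Shared window: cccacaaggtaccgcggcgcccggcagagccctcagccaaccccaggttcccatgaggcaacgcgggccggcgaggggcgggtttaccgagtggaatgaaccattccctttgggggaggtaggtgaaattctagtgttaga
Mrpl46 measured 8.12, 8.12 and 7.92 in ezrinT567A-GFP, against 8.0 in GFP, and Mrps11 measured 7.49, 7.66 and 7.42, against 7.57. Both genes overlapped GFP, with differences of 0.05 (SE 0.14) and -0.05 (SE 0.15).

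The 2 mouse genes of the family outside the 76 were seen through shared probe sets. The one that names Mrpl53 with Ccdc142 measured 9.05, 8.97 and 8.94 in ezrinT567A-GFP, against 8.93 in GFP. The brighter of 2 that name Mrpl30 with Gm6238 measured 10.5, 10.5 and 10.3, against 10.6 in GFP. Signals of the genes on each probe set cannot be told apart.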
